A study of Mus musculus with 8 samples.

Results

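The regions described here are the H3K27ac regions gained with KCl in both of the study's mouse neuronal cultures. H3K27ac peaks of 8 libraries were merged wherever they overlapped by at least 1 bp, and a region was a member when it held a peak in all 4 KCl lists and in none of the 4 unstimulated lists. There were 638 such regions among 113604 merged regions on chromosomes 1 to 19 and X. Members were therefore chosen by peak presence in all 8 libraries, so the contrast between KCl and unstimulated cultures at these regions is the rule itself, and it is given without a test.

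The study mapped H3K27ac by chromatin immunoprecipitation and sequencing in 4 groups of 2 libraries, all labelled C57/BL6. Cultures titled CTX or MGE (a common short form of medial ganglionic eminence, the embryonic source of many cortical GABAergic interneurons) received 55 mM KCl for 2 h on day 7 in vitro, and both have unstimulated partners that received no KCl. All 4 groups, the unstimulated ones included, had been silenced on day 6 with 1 µM TTX, which blocks sodium channels, together with 100 µM D-AP5, which blocks NMDA receptors. The antibody was ab4729. The labels disagree on the material, since the CTX titles give embryonic day 14, the source field gives day 16 for all libraries, and the cell type field names cortical neurons for the MGE libraries as well. The 2 libraries of a group are labelled BioRep 1 and 2 with no word on which cells or animals were separate, and the number of embryos behind each is not given in the sources used here.

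H3K27ac marks active promoters and enhancers, and acetylases such as CBP and p300 deposit it. In neurons, membrane depolarisation opens calcium channels, and calcium-activated kinases then act on CREB, SRF and MEF2 factors already bound to DNA. These switch on immediate early genes, many of which encode transcription factors of the AP-1, EGR, NR4A and NPAS4 kinds, and a later wave of genes for secreted and synaptic proteins follows. CREB binds the cyclic AMP response element (CRE).

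Of 49 promoter windows that a gained region overlapped, 33 (67.3%) held the short form of the CRE, the letters TGACG or CGTCA. The windows run from 250 bases before to 50 bases after a gene start (RefSeq, GRCm38.p6, the coordinates of mm10), and belong to 47 genes. The first 4 windows are shown because they lie at immediate early or late activity-regulated genes, and the other 3 because they hold the full CRE. Capitals mark this short form, the full CRE TGACGTCA, the EGR letters GCGGGGGCG or GCGTGGGCG and the MEF2 site. Sequences are written 5′ to 3′ on the strand of the gene.

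Fosb promoter, chr7:19309996-19310295, minus strand: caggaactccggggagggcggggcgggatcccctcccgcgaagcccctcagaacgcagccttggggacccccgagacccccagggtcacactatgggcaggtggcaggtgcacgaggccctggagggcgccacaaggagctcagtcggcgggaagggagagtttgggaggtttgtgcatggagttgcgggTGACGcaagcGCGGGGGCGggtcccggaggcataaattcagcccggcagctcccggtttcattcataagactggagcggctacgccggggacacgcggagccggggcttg
Nr4a3 promoter, chr4:48045055-48045354, plus strand: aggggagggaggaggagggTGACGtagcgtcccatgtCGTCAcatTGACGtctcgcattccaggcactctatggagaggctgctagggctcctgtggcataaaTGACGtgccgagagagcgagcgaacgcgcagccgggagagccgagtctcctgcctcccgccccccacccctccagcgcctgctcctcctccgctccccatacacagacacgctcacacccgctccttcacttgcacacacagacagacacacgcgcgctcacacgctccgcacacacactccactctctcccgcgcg
Atf3 promoter, chr1:191183284-191183583, minus strand: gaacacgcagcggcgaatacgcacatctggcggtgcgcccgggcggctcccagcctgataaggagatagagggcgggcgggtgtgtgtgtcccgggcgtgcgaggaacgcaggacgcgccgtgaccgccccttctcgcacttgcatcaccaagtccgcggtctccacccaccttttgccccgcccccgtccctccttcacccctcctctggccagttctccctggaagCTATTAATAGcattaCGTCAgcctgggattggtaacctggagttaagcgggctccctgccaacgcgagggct
Ptgs2 promoter, chr1:150099781-150100080, plus strand: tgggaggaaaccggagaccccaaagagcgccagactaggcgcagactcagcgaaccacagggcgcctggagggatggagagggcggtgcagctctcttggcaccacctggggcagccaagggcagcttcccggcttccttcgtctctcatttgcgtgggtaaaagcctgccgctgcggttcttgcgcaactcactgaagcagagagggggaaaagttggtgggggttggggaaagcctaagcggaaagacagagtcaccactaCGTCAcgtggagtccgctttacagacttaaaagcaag
Mturn promoter, chr6:54681374-54681673, plus strand: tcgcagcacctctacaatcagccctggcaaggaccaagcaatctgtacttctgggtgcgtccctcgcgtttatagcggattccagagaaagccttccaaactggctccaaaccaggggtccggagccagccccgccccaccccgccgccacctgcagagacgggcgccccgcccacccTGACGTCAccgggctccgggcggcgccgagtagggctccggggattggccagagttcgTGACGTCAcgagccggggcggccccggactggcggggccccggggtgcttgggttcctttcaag
Braf promoter, chr6:39725414-39725713, minus strand: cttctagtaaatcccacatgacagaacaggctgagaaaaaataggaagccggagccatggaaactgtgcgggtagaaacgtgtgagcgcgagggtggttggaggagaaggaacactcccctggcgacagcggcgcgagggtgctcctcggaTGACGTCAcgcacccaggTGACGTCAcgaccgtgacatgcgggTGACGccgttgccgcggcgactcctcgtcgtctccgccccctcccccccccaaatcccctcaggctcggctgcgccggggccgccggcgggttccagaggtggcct
Cartpt promoter, chr13:99900634-99900933, minus strand: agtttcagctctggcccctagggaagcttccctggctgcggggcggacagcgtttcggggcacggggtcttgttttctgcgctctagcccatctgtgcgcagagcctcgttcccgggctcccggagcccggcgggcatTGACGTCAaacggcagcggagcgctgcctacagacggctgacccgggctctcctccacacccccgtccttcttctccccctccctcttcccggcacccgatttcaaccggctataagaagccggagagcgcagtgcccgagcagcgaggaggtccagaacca

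In the Fosb window TGACG begins 60 bases before the start and an EGR match follows it 50 bases before the start. The Nr4a3 window holds 4 matches of the short form, at 231, 213, 205 and 147 bases before the start. Atf3 has CGTCA at 7 bases before the start, behind a MEF2 match at 22 bases. Ptgs2 has its match 13 bases inside the transcript. Mturn, a gene named for neural maturation in frogs, has 2 full CREs, at 72 and 14 bases before the start. Braf, which encodes a kinase of the MAP kinase cascade, has 2, at 99 and 81 bases. Cartpt, which encodes the CART neuropeptide precursor, has 1 full CRE at 112 bases before the start. At Braf and Nr4a3 the gained region reached only 22 and 30 bases into the window, so most of the printed letters lie outside the called region. At Mturn the gained region covered 154 bases of the window and ended 97 bases before the start. The full CREs printed for Mturn and Braf thus lie outside the called region. At Atf3, Ptgs2 and Cartpt the gained region covered all 300 bases.

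The share of windows with the short form was 67.3% at gained regions, against 41.1% (79 of 192) at regions of all 4 KCl lists and 1 unstimulated list. It was 36.3% (131 of 361) with 2 unstimulated lists, 32.7% (239 of 732) with 3, and 35.7% (2877 of 8053) at regions of all 8 lists. Among all 21045 windows of protein-coding genes 23.8% held it. Regions in 3 KCl lists and no unstimulated list gave 43.3% (39 of 90). With an overlap of at least 100 bases between window and gained region the share was 65.5% (19 of 29). The short form contains CG, so base composition bears on these shares. The median GC content was 62.0% in the gained windows, 62.7% in those of all 8 lists, 60.7% in those of 3 KCl lists and no unstimulated list, and 56.7% in all windows. The median number of CG dinucleotides was 23, 23, 16.5 and 13 in the same order. With 1, 2 and 3 unstimulated lists the median GC content was 61.3%, 61.3% and 62.7%, and the median number of CG dinucleotides 20, 22 and 22. Composition was thus close between gained windows and those of all 8 lists. It was lower in the windows of 3 KCl lists and no unstimulated list and in all windows. Its part in the shares was not tested. Among the gained windows are 2 starts each of Rbm4 and Zscan18 and the head-to-head pairs Atg4a with Psmd10 and Dnajc8 with Atpif1, which share sequence.

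The other letters searched, on both strands, differed by fewer percentage points, and 1 window of 49 is 2.04%. The full CRE, which contains the short form on both strands, was in 12.2% of gained windows (6: Abcg2, Braf, Cartpt, Cdc14b, Mturn and Wdr63), against 3.82% at regions of all 8 lists and 2.26% of all windows. At Braf, Cdc14b and Mturn it lies in the window but outside the called region. AP-1 letters (TGACTCA or TGAGTCA) were in 4.08%, 2.61% and 4.69% of the same sets, and EGR letters in 8.16%, 7.19% and 4.67%. The short NPAS4-ARNT letters TCGTG were in 26.5%, 22.5% and 17.6%, and the E-box CANNTG in 75.5%, 59.7% and 69.0%. NFI letters (TTGGCA) were in 8.16%, 9.67% and 13.1%, and the MEF2 site in 2.04%, 1.22% and 2.61%. The NR4A letters AAAGGTCA and the CArG box, where SRF binds, were in none of the 49 gained windows, against 0.708% and 0.906% at regions of all 8 lists. A match is a run of letters and not a measured binding site.

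**Figure D1:**
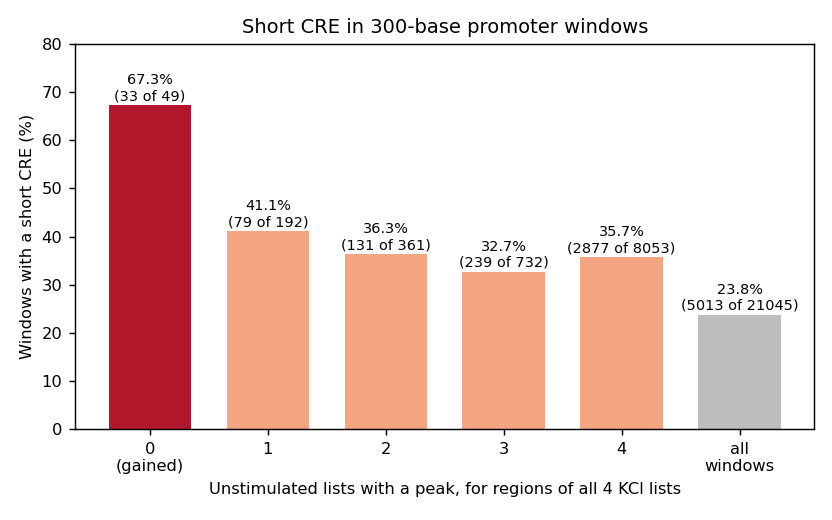
Share of 300-base promoter windows (%, vertical axis) with the letters TGACG or CGTCA on either strand, by the number of unstimulated lists that hold the overlapping region of all 4 KCl lists, with all windows at the right. The bar for gained regions stands at 67.3%, the next 4 between 32.7 and 41.1% and all windows at 23.8%.

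The 8 lists held 36035 to 66827 peaks covering 21.1 to 44.7 Mb, and the read depth behind them is not given in the sources used here. As a check of the labelled cultures, peaks over the listed start were counted for marker genes. Of 18 GABAergic and MGE genes, the MGE KCl lists held 7 and 8 and the MGE unstimulated lists 9 and 6, while the CTX KCl lists held 5 and 6 and the CTX unstimulated lists 2 and 6. Of 17 cortical glutamatergic genes, the MGE KCl lists held 3 and 2 and the MGE unstimulated lists 3 and 1, and the CTX KCl lists 3 and 6 and the CTX unstimulated lists 2 and 5. The ranges of the cultures thus overlapped for both lists. Microglial and endothelial starts were at 0 in all 8 lists. Astrocyte starts numbered 0 to 3 of 8, with 3 in the second library of either CTX group, and oligodendrocyte starts 0 or 1 of 6. Neural progenitor starts numbered 4 of 8 in CTX KCl 2, 2 in CTX unstimulated 2 and 0 or 1 in the other lists. The part of these cells in the gained regions was not tested. In bulk chromatin, acetylation in more cells and more acetylation per cell cannot be told apart.

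The 638 gained regions were 0.562% of all merged regions, and 3.59% of the 17760 regions with a peak in all 4 KCl lists. The reverse pattern, a peak in all 4 unstimulated lists and in no KCl list, was found in 133 regions (0.117%). The genome covered by the lists differed between libraries: 28.5 and 44.7 Mb in CTX KCl, against 23.5 and 42.9 Mb in CTX unstimulated, and 21.5 and 32.0 Mb in MGE KCl, against 23.0 and 21.1 Mb in MGE unstimulated cultures. With the strongest peaks of each list taken up to the same number of peaks, 505 regions were gained and 183 had the reverse pattern. Taken up to the same number of called bases, the counts were 266 and 219. With every list held to a −log10 q of at least 5 they were 221 and 13. Gained regions outnumbered reverse ones under all of these settings. The ratio of gained to reverse counts was lowest with equal called bases and highest with the q limit, and the cause was not tested. The smallest exact two-sided p for 2 libraries against 2 is 0.33, and no region was tested singly.

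Many regions missed the rule by a single list. A peak in all 4 KCl lists and in 1 unstimulated list was found in 745 regions, and CTX unstimulated 2, the longest unstimulated list, was the one that touched 488 of these. MGE unstimulated 1 touched 137, MGE unstimulated 2 touched 87 and CTX unstimulated 1 touched 33. Another 1442 regions had a peak in 3 KCl lists and no unstimulated list. Of these, 639 were missing from MGE KCl 1 and 619 from CTX KCl 1, the shorter KCl list of each culture, against 113 from MGE KCl 2 and 71 from CTX KCl 2. Leaving out 1 library loosens the rule, and the number of gained regions was 1286 without MGE KCl 1, 1262 without CTX KCl 1 and 1159 without CTX unstimulated 2.

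**Figure D2:**
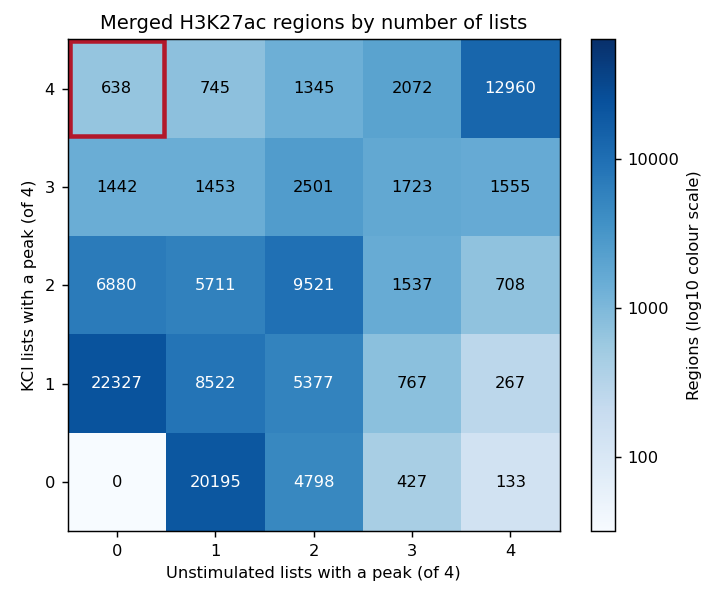
Number of merged regions by how many of the 4 KCl lists (vertical axis) and of the 4 unstimulated lists (horizontal axis) hold a peak in them, on a log10 colour scale. The outlined cell holds the 638 gained regions, beside 745 regions with 1 unstimulated list, 12960 regions of all 8 lists at the upper right and 133 with the reverse pattern at the lower right.

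The width of gained regions ran from 316 to 2797 bp with a median of 724.5 bp (quartiles 580 and 903 bp), and together they covered 490.0 kb. The median width was 1446 bp for regions of all 8 lists, 862 bp for those of all 4 KCl lists and 1 unstimulated list, and 613 bp for those of 3 KCl lists and no unstimulated list. It was 509 bp for regions of the CTX KCl lists only, 527 bp for those of the MGE KCl lists only and 544 bp over all merged regions. The median of the authors' fold enrichment, taken at the strongest peak in each region, was 3.09 in CTX KCl 1, 3.49 in CTX KCl 2, 3.35 in MGE KCl 1 and 3.15 in MGE KCl 2. The median −log10 q, the authors' measure of how far a peak stands above background, was 3.08, 5.14, 3.36 and 4.34 in the same order. Ranked by that value within their own list, the members sat at median percentiles of 38.5, 56.2, 41.0 and 56.0. They lay lower in the shorter list of each culture. Only 69 members (10.8%) were above the median peak in all 4 KCl lists, and 2, 10, 8 and 11 of them were above percentile 90 of their list.

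Many of these regions bordered acetylation already called without KCl. An unstimulated peak lay within 1 kb of 210 members and within 10 kb of 411, at a median distance of 5.14 kb and a range from 21 bp to 290.2 kb. Regions of all 8 lists were farther away, at a median of 44.3 kb, and lay within 10 kb of 124 members. Another member lay within 10 kb of 66 of them. The rule does not separate a peak that widened or was split from one that stands alone.

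Most gained regions lay away from gene starts. Of the 638, 90 (14.1%) were within 2 kb of a gene start, 327 (51.3%) were elsewhere in a gene and 221 (34.6%) were outside genes. Regions of all 8 lists had 55.7% at starts. Regions called in both CTX KCl lists and no other list had 5.16%, those of both MGE KCl lists only 2.35%, and those of the reverse pattern 4.51%. Over all merged regions the share was 11.6%. The count at starts was 282 without CTX unstimulated 2 and 189 without MGE KCl 1, and it was 48 when peaks up to 500 bp apart were first joined.

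**Figure D3:**
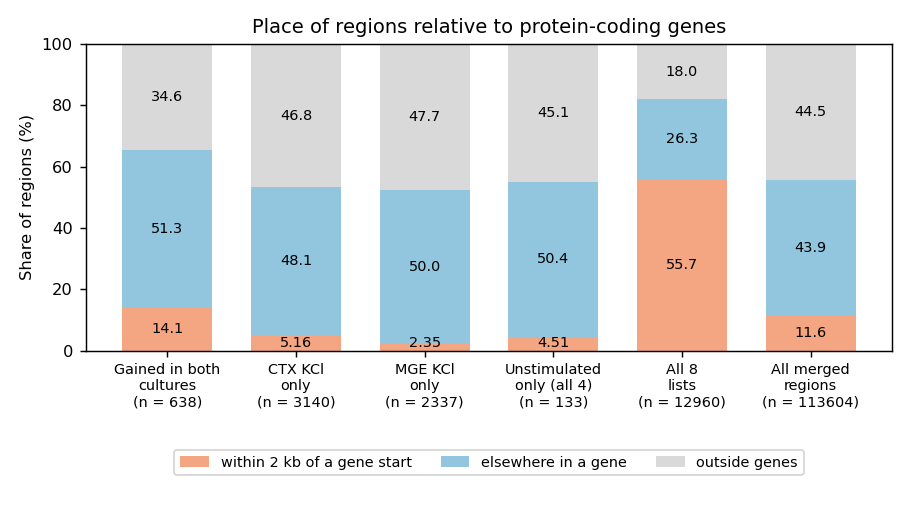
Share of regions (%, vertical axis) within 2 kb of a gene start, elsewhere in a gene and outside genes, for the gained regions, 4 other sets and all merged regions. Gained regions had 14.1% at starts, between the regions of 1 culture only (5.16 and 2.35%) and those of all 8 lists (55.7%).

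Each region was assigned to the nearest protein-coding gene up to 100 kb away. In this way 565 gained regions fell to 502 genes, 2.32% of the 21631 genes in the annotation, and 73 had no gene within reach. A single region was assigned to 448 genes and 2 regions to 48. Ank2 (an ankyrin scaffold of the axon), Nabp1 (a single-strand DNA binding protein) and Ppfia2 (a liprin of the presynaptic active zone) had 3 each, and Dip2c, Oxr1 and Sgip1 had 4 each. Long genes collect more regions of every kind: Ank2 spans 578.7 kb with 65 merged regions and Ppfia2 464.0 kb with 42, whereas Nabp1 spans 13.5 kb with 17.

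Immediate early genes held gained regions at 10 of 35 (28.6%), against 2.32% of all genes. They were Atf3, Fosb, Fosl1, Gadd45b, Junb, Npas4, Nr4a1, Nr4a3, Per1 and Srf, with 11 regions. These were 5.85% of the 188 merged regions assigned to the list, against 0.615% for all genes, and 13.9% of its 79 regions with a peak in all 4 KCl lists, against 3.4%. Late activity-regulated genes held them at 6 of 34 (17.6%), which were Acan, Crhbp, Nptx2, Ptgs2, Rasgrp1 and Vgf, with 7 regions. These 7 were 14.6% of that list's 48 regions with a peak in all 4 KCl lists. The number of activity-list genes was 16 in all, and 26 without CTX unstimulated 2. With equal called bases it was 12, of which 6 were among the 16. The gene lists were chosen with earlier results of these data known.

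Fosb, which encodes a Fos-family subunit of AP-1, carried the gained region of highest rank, where a region's rank is its lowest percentile over the 4 KCl lists. The region at chr7:19310005-19310696 covered the gene start. Its −log10 q was 9.50 and 12.83 in CTX KCl and 10.39 and 18.04 in MGE KCl, with fold enrichments of 4.05 and 4.06 in CTX KCl and 4.36 and 4.57 in MGE KCl. It lay at or above percentile 86.6 in every KCl list, and the MGE KCl 2 value was the highest of the 4. The nearest unstimulated peak was 1.38 kb away, inside the gene. Over all 4 regions assigned to Fosb, the called length was 2882 and 4842 bp in CTX KCl and 3492 and 3691 bp in MGE KCl, against 646 and 1310 bp in CTX unstimulated and 375 and 644 bp in MGE unstimulated cultures. The KCl and unstimulated lengths did not overlap. The gained region is part of each KCl sum, so this separation is partly the rule.

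Npas4, a transcription factor gene that responds to calcium entry, carried 2 gained regions before its listed start. Both lie inside the annotated gene span, chr19:4984353-5003439. The nearer, chr19:4990315-4990804, lay 0.3 kb before the start with −log10 q of 5.76 and 12.31 in CTX KCl and 5.26 and 7.24 in MGE KCl. The farther, chr19:4991889-4992886, lay 1.9 kb before it with 4.57 and 10.77 in CTX KCl and 6.65 and 7.34 in MGE KCl. CTX KCl 2 was the highest library at both. Their fold enrichments were low, 1.86 to 2.22 at the nearer and 1.84 to 2.04 at the farther. Upstream of both stood regions called in all 8 lists, the nearest 478 bp from the farther gained region. Npas4 kept at least 1 gained region under all 19 alternative settings tried for activity-list genes.

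**Figure D4:**
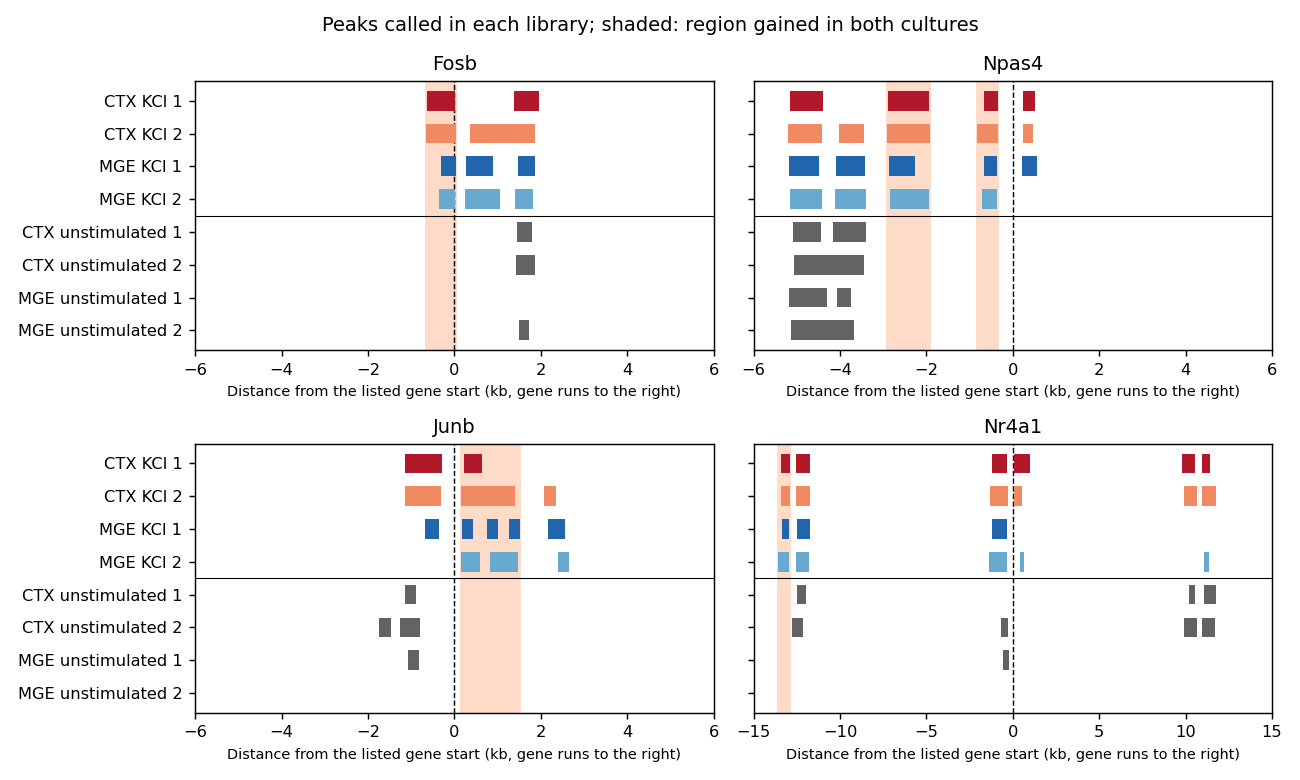
Peaks called in each of the 8 libraries (rows, KCl above unstimulated) at Fosb, Npas4, Junb and Nr4a1, against the distance from the listed gene start in kb with the gene running to the right, and with gained regions shaded. Inside the shaded spans all 4 KCl rows hold peaks and the unstimulated rows hold none, while unstimulated peaks stand within 1.38 kb of the Fosb region and 0.12 kb of the Nr4a1 region.

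The other AP-1 and bZIP genes were weaker. Junb, the partner of Fos proteins in AP-1, had a region of 1362 bp inside the gene at chr8:84977227-84978588 with −log10 q of 3.82 and 3.93 in CTX KCl and 3.67 and 3.14 in MGE KCl, nearly equal in all 4. Fosl1, another Fos-family gene, had a region of 1344 bp at chr19:5447246-5448589 with 2.49 and 5.6 in CTX KCl and 3.74 and 3.61 in MGE KCl. It was the only merged region assigned to Fosl1, so no peak was assigned to this gene in any unstimulated list, and the nearest was 8.03 kb away. Atf3, a bZIP factor induced by stress and activity, had a wide region of 1785 bp over its start at chr1:191182669-191184453. Its −log10 q was 5.91 and 8.01 in CTX KCl and 2.31 and 5.33 in MGE KCl. The nearest unstimulated peak was 39.57 kb away, so this start was called with KCl alone.

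The NR4A genes Nr4a1 and Nr4a3, which encode orphan nuclear receptors, each had a gained region beside an older peak. Nr4a2, on the same immediate early list, had no gained region. Nr4a3 had 883 bp starting 20 bp inside the transcript (chr4:48045325-48046207) with −log10 q of 5.01 and 7.98 in CTX KCl and 3.11 and 4.84 in MGE KCl, and the nearest unstimulated peak was 0.34 kb away. Nr4a1 had 688 bp 12.9 kb before its listed start (chr15:101253245-101253932) with 6.6 and 10.04 in CTX KCl and 3.69 and 3.46 in MGE KCl. That region overlaps the outer end of the annotated gene span, which begins at chr15:101253902. The CTX values were higher than the MGE values there, and with 2 libraries a culture this was not tested. Its nearest unstimulated peak was 0.12 kb away.

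Srf, which encodes the factor that binds CArG boxes, had 622 bp at chr17:46556441-46557062, 0.3 kb from the start. Its −log10 q was 7.75 and 13.81 in CTX KCl and 1.67 and 8.14 in MGE KCl. The MGE KCl 1 value lies close to the lowest in that list (1.32), so the place of Srf among the members rests on a peak near the caller's limit. Gadd45b, a gene tied to DNA demethylation and stress, had 814 bp at chr10:80930143-80930956 with 3.06 and 4.62 in CTX KCl and 7.05 and 2.80 in MGE KCl. Per1, a repressor of the circadian clock, had 455 bp 2162 bp from its gene span (chr11:69112127-69112581) with 3.18 and 5.51 in CTX KCl and 2.85 and 6.66 in MGE KCl. An unstimulated peak came within 56 bp of the Gadd45b region and 5.06 kb of the Per1 region.

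**Figure D5:**
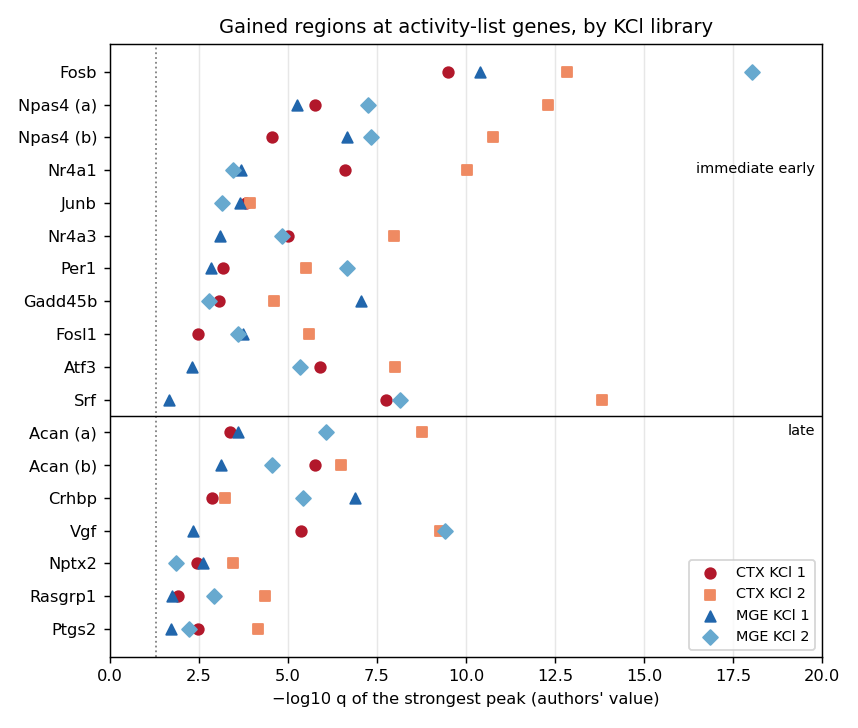
−log10 q of the strongest peak (horizontal axis, the authors' value) in each of the 4 KCl libraries for the 18 gained regions at activity-list genes, immediate early genes above and late genes below, with (a) and (b) for a gene's 2 regions. The dotted line marks a q of 0.05. Fosb stands at 9.50 to 18.04, and several late-gene regions stand near the line in at least 1 library.

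Among the late genes, Acan, which encodes aggrecan of perineuronal nets, had 2 gained regions 429 bp apart, 58.9 and 57.7 kb before its start. The first (chr7:78993687-78994329) had −log10 q of 3.39 and 8.78 in CTX KCl and 3.6 and 6.06 in MGE KCl, and the second (chr7:78994759-78995523) had 5.77 and 6.49 in CTX KCl and 3.12 and 4.57 in MGE KCl. Crhbp, which encodes the binding protein of corticotropin-releasing hormone, had the widest member of all at 2797 bp (chr13:95424284-95427080), 4296 bp from the gene span. It was stronger in MGE KCl (6.90 and 5.42) than in CTX KCl (2.87 and 3.25), a difference not tested. Vgf, which encodes a neuropeptide precursor, had 682 bp inside the gene (chr5:137029289-137029970) with 5.38 and 9.28 in CTX KCl and 2.34 and 9.42 in MGE KCl.

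The remaining late-gene regions were faint. Ptgs2, the inducible cyclooxygenase COX-2, had 687 bp over its start (chr1:150099657-150100343) with −log10 q of 2.49 and 4.15 in CTX KCl and 1.72 and 2.23 in MGE KCl. Nptx2, a pentraxin that gathers AMPA receptors, had 889 bp inside the gene (chr5:144546124-144547012) with 2.45 and 3.46 in CTX KCl and 2.62 and 1.85 in MGE KCl. Rasgrp1, a Ras activator that responds to diacylglycerol, had 1080 bp 29.1 kb before its start (chr2:117371960-117373039) with 1.92 and 4.37 in CTX KCl and 1.76 and 2.93 in MGE KCl. These 3 genes, Crhbp and Junb lost their gained region when the lists were held to the same number of peaks, and Junb lost it under 7 of the 19 alternative settings, the most of the 16 genes. Over all its regions Nptx2 had a called length of 796 and 3555 bp in CTX KCl and 892 and 2093 bp in MGE KCl, against 280 and 2296 bp in CTX unstimulated and 540 and 265 bp in MGE unstimulated cultures, so its KCl and unstimulated ranges overlapped. The ranges overlapped at Nr4a1, Ptgs2, Rasgrp1, Srf and Vgf as well, and not at the rest of the 16 genes. At Per1 they came close, with 1716 bp in MGE KCl 1 against 1702 bp in CTX unstimulated 1. Each KCl sum includes a gained region, so such separation is partly the rule. The same count over all genes was not made.

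Several well-known activity genes fell just outside the rule. Counting regions that missed it by 1 list, 21 of the 35 immediate early genes and 15 of the 34 late genes had a gained or nearly gained region. The share of all genes under this looser rule was not counted. The 2.32% given above covers gained regions alone and is not its background. The nearly gained region of highest rank was at the start of Gpr3, a receptor that raises cyclic AMP without a ligand. Its −log10 q was 15.63 and 10.96 in CTX KCl and 7.65 and 9.54 in MGE KCl, against 3.12 in CTX unstimulated 2 alone. Maff, a small Maf factor, had 10.12 and 16 in CTX KCl and 7.59 and 8.85 in MGE KCl, against 5.81 in CTX unstimulated 2. Both thus stood above the Npas4 regions in rank and were kept out by the longest unstimulated list.

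The start of Fos itself (chr12:85473010-85475037) had −log10 q of 6.80 and 9.15 in CTX KCl and 11.29 and 4.78 in MGE KCl, against 3.54 in CTX unstimulated 2 and no peak in the other 3 unstimulated lists. Fosl2 (8.0 and 15.16 in CTX KCl and 4.37 and 8.68 in MGE KCl, against 6.87) and Egr2 (5.83 and 4.64 in CTX KCl and 4.68 and 5.32 in MGE KCl, against 3.79) were touched at their starts by the same list. Arc, whose protein helps to remove AMPA receptors from synapses, had a region 6.0 kb from the gene that MGE unstimulated 2 touched at 1.96. The KCl values there were 3.80 and 7.44 in CTX KCl and 6.95 and 9.29 in MGE KCl. A region 14 kb from Btg2, which encodes an antiproliferative protein, was touched by the same library at 1.87, and the start of Acan by MGE unstimulated 1 at 1.88. Vgf and Nr4a2 each had a region that was missing from MGE KCl 1 alone.

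Genes of calcium and cyclic AMP signalling held gained regions at 6 of 25 (24.0%), against 2.32% of all genes. Their 9 regions were 1.38% of the 653 merged regions assigned to the list, against 0.615% for all genes, and 8.74% of its 103 regions of all 4 KCl lists, against 3.4%. The one of highest rank, by its lowest percentile, lay inside Mef2c, which encodes an activity-dependent MEF2 factor, with −log10 q of 6.06 and 8.49 in CTX KCl and 5.66 and 5.23 in MGE KCl. Phosphodiesterases, which break down cyclic nucleotides, accounted for 5 of the 9. Pde10a had 2 of them, with 5.00 and 11.14 in CTX KCl and 4.33 and 8.87 in MGE KCl at the stronger, above Mef2c in the second library of each culture and below it in the first. Pde4d had 2 in the gene, with 5.48 and 6.98 in CTX KCl and 6.64 and 4.61 in MGE KCl at the stronger, and Pde4b had 1, with 2.40 and 3.88 in CTX KCl and 2.11 and 1.87 in MGE KCl. The kinase genes Dclk1 and Camk1d had 2 and 1, at lowest percentiles between 21.1 and 23.4. The list had 653 merged regions on its 25 genes, against 188 on 35 immediate early genes. Pde4d alone spans 1301.8 kb with 129 merged regions. The share of genes with a member is not adjusted for that. This list too was chosen with earlier results of these data known.

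Synaptic and channel genes held them at 8 of 25 (32.0%), against 2.32% of all genes. Their 11 regions were 1.08% of all regions assigned to the list, against 0.615% for all genes, and 9.82% of its 112 regions of all 4 KCl lists, against 3.4%. The metabotropic glutamate receptor gene Grm5 had the one of highest rank, with −log10 q of 4.59 and 6.12 in CTX KCl and 3.59 and 3.67 in MGE KCl, and its nearest unstimulated peak was 52.66 kb away. The AMPA receptor gene Gria2 and the scaffold gene Dlg2 had 2 each. The scaffold genes Shank2 and Lrrc7 and the potassium channel gene Kcnq5 had 1 each. Kcnq5 had the weakest, at 1.51 in MGE KCl 2. The list has many more merged regions per gene than the immediate early genes (1018 on 25 genes, against 188 on 35), and the share of genes with a member is not adjusted for that. It was likewise chosen with earlier results of these data known.

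Cell identity genes held 1 gained region. It was assigned to 1 of 24 GABAergic and MGE genes (4.17%), against 2.32% of all genes. It made up 2.56% of that list's 39 regions of all 4 KCl lists, against 3.4% for all genes. The region lay inside Gad2, which encodes a GABA-producing enzyme, with −log10 q of 6.07 and 11.40 in MGE KCl and 3.98 and 2.6 in CTX KCl. None was assigned to the 22 cortical glutamatergic genes, which had 363 merged regions of which 39 were in all 4 KCl lists. Astrocyte, oligodendrocyte, microglial, endothelial, progenitor, housekeeping and neuron-silent genes had none either, on 0 to 22 regions of all 4 KCl lists each. At the background of 3.59%, 39 such regions would hold 1 or 2 gained ones, so a count of 0 or 1 at such a list is not a result about it.

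The regions of highest rank were mostly at genes outside the lists. After Fosb came a region 46.4 kb from Snd1, which encodes an RNA-binding nuclease, with −log10 q of 7.97 and 12.44 in CTX KCl and 10.19 and 14.12 in MGE KCl. Next was one inside Ankrd28, a subunit gene of a protein phosphatase complex, with 7.75 and 13.25 in CTX KCl and 20.35 and 23.74 in MGE KCl, the highest MGE values of any member. Relb, which encodes an NF-κB subunit, had 7.42 and 10.42 in CTX KCl and 8.35 and 15.05 in MGE KCl, with the nearest unstimulated peak 23.98 kb away. Cacna1a, the pore subunit of the P/Q-type calcium channel, had 7.89 and 14.76 in CTX KCl and 6.62 and 14.13 in MGE KCl. Kdm6b, a demethylase of H3K27, ranked 15 with 7.49 and 12.42 in CTX KCl and 5.53 and 9.02 in MGE KCl. The nearest unstimulated peak was 0.09 kb from the Snd1 region, 0.31 kb from that of Cacna1a and 0.18 kb from that of Kdm6b. It was 11.97 kb from the Ankrd28 region.

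The others of the first 15 lay inside Tmem135, Oaz2, Unc79 and Dnajc12, 4.3 kb from Ociad2, and at the starts of Ift172, Dnajc8 and Pgam1. Unc79, a partner of the sodium leak channel, had −log10 q of 7.69 and 7.53 in CTX KCl and 8.05 and 7.16 in MGE KCl, the most even of the 15. The region of rank 7 (chr13:6126859-6127392) had no gene within 100 kb and lay 265.4 kb from the start of Klf6, an immediate early gene. Its values were 9.59 and 10.73 in CTX KCl and 8.27 and 6.66 in MGE KCl. An unstimulated peak was within 0.5 kb of 7 of the 15.

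At gene starts, the members of highest rank after Fosb were at Ift172 (an intraflagellar transport gene), Dnajc8 (a chaperone of the splicing machinery) and Pgam1 (a glycolytic enzyme). The Pgam1 region was 340 bp wide with −log10 q of 9.19 and 21.62 in CTX KCl and 8.97 and 6.18 in MGE KCl, and an unstimulated peak lay 0.17 kb away. Further members near starts were at H1f3 (a linker histone), Kpnb1 (importin beta), Atp5d (ATP synthase), Polr1d (an RNA polymerase subunit), Mturn, Ncapg2 (a condensin subunit) and Ypel5, each with an unstimulated peak 0.21 to 1.11 kb away. Pmaip1, which encodes the BH3 protein NOXA, and Tgfbr2, a receptor of TGF-beta, differed in that the nearest unstimulated peak was 64.21 and 5.15 kb away. No start is listed for Pmaip1, on chromosome 18, and its region lay over an end of the gene span. That region had −log10 q of 8.69 and 9.84 in CTX KCl and 5.14 and 8.68 in MGE KCl. Its fold enrichments ran from 4.88 to 5.79.

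After Crhbp, the widest members were at Patz1 (2296 bp), Amotl2 (1898 bp), Atf3 (1785 bp) and Tmem135 (1778 bp). Amotl2, an angiomotin gene of the Hippo pathway, had called lengths of 1365 and 1477 bp in CTX KCl and 1583 and 1836 bp in MGE KCl of the 1898 bp. The narrowest were at Fbxl17 (316 bp), Zfp959 (321 bp) and Gatd1 (334 bp), and were called over 249 to 311 bp in each library. Members were spread over the chromosomes, making up between 0.441% (chromosome 2) and 0.826% (chromosome 19) of the regions of each.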

How the data were processed

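The files were 8 broad-peak lists of H3K27ac, 1 per library, called separately. The submitters' processing notes name MACS3 3.0.0a7, Bowtie2 2.3.3, cutadapt 1.18, deepTools 3.4.3 and the build mm10; roles, settings and any input control are not given there. The deposited values of a peak are a fold enrichment over background, which is a linear ratio, and −log10 of its p and q. The deposited display score was not used. The lowest −log10 q per list was 1.30 to 1.35, near a q of 0.05. Read depth is unknown, so absence from a list means no peak past that limit and not absence of acetylation.

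Peaks on chromosomes 1 to 19 and X were merged at an overlap of 1 bp with Python 3.11.15, numpy 2.4.6 and pandas 2.3.3, after a test on simulated peaks. Within a region the strongest peak by −log10 q was used, and percentiles were taken within a list. Gene spans and promoter windows came from RefSeq, GRCm38.p6, which lists starts for 17274 of 21631 protein-coding genes. On chromosome 18 (21 members) the ends of gene spans were used instead. No genome sequence was used, so motifs were searched in promoter windows only. Groups came from the titles.

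The named members were all those at genes of the lists, the 15 of highest rank, the 5 widest and 3 narrowest, up to 15 of highest rank within 2 kb of a start, and up to 10 nearly gained regions at activity-list genes. A few that this rule names are not reported here. Promoters to print were picked after their matches were seen. Members, gene lists and rules were chosen with earlier results of these data known, and the contrast is part of the rule, so no test was run and all counts are descriptions. The alternatives were stricter q limits, lists cut to equal peaks or bases, joined peaks, other overlap, distance and gene assignment rules, and leaving out each library.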

Additional observations from a re-analysis of the deposited data

How the results depend on the processing

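The number of gained regions (638) was 221 when every list was held to a −log10 q of at least 5, 23 when only the KCl lists were, and 266 with equal called bases. It was 429 to 832 under the other settings that kept all 8 libraries, and 671 to 1286 when 1 library was left out. The reverse pattern (133) gave 13 with the limit in every list, 219 with equal bases and 150 to 308 without 1 library; these alternatives were chosen after seeing the data. Gained regions at gene starts (90) numbered 7 with the limit in the KCl lists, 48 and 45 with peaks joined up to 500 and 1000 bp, 178 when only the stretches inside peaks of all 4 KCl lists were counted, 44 with no unstimulated peak within 1000 bp, and 98 to 282 without 1 library. Activity-list genes with a gained region (16) numbered 9 with the limit in every list, of which 3 were among the 16, 2 with it in the KCl lists, 10 with peaks joined up to either distance, and 16 to 26 without 1 library. With peaks joined up to either distance, Fosb, Gadd45b, Junb, Nr4a1, Nr4a3, Srf and Vgf lost their gained region. The share of windows with the short CRE was 65.5% in place of 67.3% with the larger overlap. No paired analysis was possible because the result comes from no test. The causes of these changes were not tested, except that leaving out a library or a stricter limit on unstimulated lists loosens the rule by construction. Depth, which is unknown, limits every statement of absence.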

Other observations

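Outside protein-coding genes, 6 of 1005 miRNA genes searched lay within 10 kb of a gained region. Such a gene was near 5 of the 638 gained regions (0.784%), close to the 0.984% of all merged regions, so the count is not a result about gained regions. The share was 2.82% for regions of all 8 lists. Mir129-1 on chromosome 6 lay 1.0 kb from one and Mir129-2 on chromosome 2 lay 2.9 kb from another, and both encode the same mature miRNA, which is abundant in brain. It is shown with its seed (bases 2 to 8) in capitals, from RefSeq, because a single sequence stands behind both loci.

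mmu-miR-129-5p: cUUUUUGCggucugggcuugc

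Both gained regions were weak, at ranks 612 and 440 of 638. The others were Mir129b, which overlaps Mir129-2 on the opposite strand, Mir6976 (2.6 kb, beside Srf), Mir1950 (4.9 kb) and Mir692-2 (6.1 kb). Expression of these miRNAs was not analysed here.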
